A study of Mus musculus with 52 samples.

Results

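Promoter accessibility was compared between untreated cells of 2 conditional mouse embryonic stem cell (mESC) lines, Kdm2a/b-JmjC fl/fl (the JmjC line) and, as its partner, Kdm2a/b-CXXC fl/fl (the CXXC line), in neither of which a KDM2 gene has been excised. Accessibility was measured by calibrated ATAC-seq, in which the Tn5 transposase tags open DNA and Drosophila cells mixed in before the reaction serve as a reference. In the JmjC line, loxP sites flank the JmjC-coding exons of both Kdm2 genes, and the cells were derived from mice made from targeted mESCs and crossed to a Rosa26 CreERT2 strain. The CXXC line has loxP sites around the exons for the ZF-CxxC DNA-binding domain of both genes, and was made by genome editing of Kdm2a in mESCs that already carried the Kdm2b alleles, followed by selection of clones. Both lines express CreERT2 from Rosa26, were grown on gelatine in serum with LIF, and were analysed here without tamoxifen, so no exon was removed on purpose. There were 3 libraries of the JmjC line and 4 of the CXXC line among the 26 ATAC libraries of the series. Each group is repeated samples of 1 line, so the p-values measure the spread between those samples. The line, its derivation and its calibration table cannot be told apart. The compared promoters were the autosomal intervals of 400 bp shared by both lines, of which 16300 passed a filter on low reads, out of 19900 autosomal and 20633 deposited intervals.

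KDM2A and KDM2B bind unmethylated CpG dinucleotides through the ZF-CxxC domain and so occupy CpG islands, the CpG-rich stretches found at most mouse promoters. KDM2B brings a variant Polycomb repressive complex 1 (PRC1) to these sites, while the JmjC domain removes methylation from lysine 36 of histone H3. Stem cells kept in serum and LIF are held in a naive-like pluripotent state by factors such as OCT4, SOX2 and NANOG, and lines of this kind are known to acquire chromosomal and epigenetic differences in culture, in imprinted genes among others.

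The 5 sequences that follow stand at promoters on which the comparison turned, and are shown because the 2 lines differed there and because their CpG content differs. Each is the 250 bases before the annotated start of transcription, taken from RefSeq on GRCm38.p6 and written 5′ to 3′ on the strand of the gene, with every CpG in capitals. Stra8, the gatekeeper of meiosis, lies on the plus strand (chr6:34920698-34920947) and has 5 CpGs in these bases. Rxra, the retinoid X receptor alpha gene, is on the plus strand (chr2:27676951-27677200) and has 40. Hus1b, a relative of a DNA damage checkpoint clamp subunit, is on the minus strand (chr13:30947762-30948011) and has 3. The Ncoa7 sequence, before a start of this nuclear receptor coactivator gene, is on the minus strand (chr10:30655868-30656117) and has 3. Peg3, an imprinted gene expressed from the paternal allele, is on the minus strand (chr7:6730420-6730669) and has 8. All 5 start sites lie inside the deposited interval of the gene.
Stra8: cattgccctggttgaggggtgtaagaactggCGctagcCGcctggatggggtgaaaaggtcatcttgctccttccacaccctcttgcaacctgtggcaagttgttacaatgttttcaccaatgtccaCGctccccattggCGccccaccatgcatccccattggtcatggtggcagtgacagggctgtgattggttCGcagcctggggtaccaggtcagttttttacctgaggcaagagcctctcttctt
Rxra: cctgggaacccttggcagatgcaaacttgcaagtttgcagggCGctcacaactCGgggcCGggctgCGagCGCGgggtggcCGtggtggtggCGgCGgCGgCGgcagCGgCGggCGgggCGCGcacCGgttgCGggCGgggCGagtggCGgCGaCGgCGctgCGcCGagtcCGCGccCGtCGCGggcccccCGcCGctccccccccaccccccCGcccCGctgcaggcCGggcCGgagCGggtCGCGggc
Hus1b: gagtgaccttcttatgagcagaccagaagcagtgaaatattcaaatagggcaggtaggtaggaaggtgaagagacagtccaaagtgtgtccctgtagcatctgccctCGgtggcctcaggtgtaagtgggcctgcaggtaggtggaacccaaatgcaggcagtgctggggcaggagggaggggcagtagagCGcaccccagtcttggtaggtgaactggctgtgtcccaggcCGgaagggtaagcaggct
Ncoa7: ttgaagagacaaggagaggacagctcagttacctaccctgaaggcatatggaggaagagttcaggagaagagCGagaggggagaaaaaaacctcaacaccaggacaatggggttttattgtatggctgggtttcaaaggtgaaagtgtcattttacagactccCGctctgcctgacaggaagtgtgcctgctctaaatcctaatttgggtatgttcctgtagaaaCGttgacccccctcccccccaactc
Peg3: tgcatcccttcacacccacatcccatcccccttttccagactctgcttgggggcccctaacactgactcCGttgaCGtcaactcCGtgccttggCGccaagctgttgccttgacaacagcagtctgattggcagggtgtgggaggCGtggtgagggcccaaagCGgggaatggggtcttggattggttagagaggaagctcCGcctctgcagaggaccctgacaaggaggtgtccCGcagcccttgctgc

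Promoter reads were 1.60, 2.09 and 1.96 M (M, 1000000) in the JmjC libraries and between 1.49 and 1.67 M in the CXXC libraries. Correlations of log2 values were 0.947 to 0.954 within the JmjC line, 0.942 to 0.948 within the CXXC line and 0.918 to 0.930 between lines, so libraries grouped by line. Levels are given below as RPM, the reads of a promoter per 1000000 promoter reads of its library. The sum over stem cell marker promoters was 264.8 to 314.9 RPM in the JmjC line and 303.8 to 365.1 RPM in the CXXC line, and 1 of the 5 tested, Nanog, was called different, lower in the JmjC line. Of the fibroblast markers, a check for feeder cells, 0 of 11 tested were called, with sums of 295.4 to 321.3 and 306.5 to 315.1 RPM. Primitive endoderm markers summed to 773.5 to 807 and 681.1 to 802.9 RPM, and 1 of 18 tested, Sparc, was called lower in the JmjC line; no marker interval of the 3 lists was at 0, and these levels are accessibility, not expression. Sparc was at 36.2, 49.7 and 46.5 RPM against 59.9 to 86.8 RPM, and was not called without JmjC replicate 1 (limma adjusted p = 0.16) or CXXC replicate 3 (limma adjusted p = 0.103). The X chromosome took 2.16 to 2.44% of promoter reads in the JmjC line and 1.82 to 1.88% in the CXXC line, while 7 Y-linked intervals summed to 32.7 to 46.2 against 108 to 134 RPM (exact permutation test, two-sided, p = 0.0286 for each, the smallest that the 35 splits of 3 against 4 libraries allow).

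Whole chromosomes differed between the lines. By the median of tested promoters relative to the promoter total, chromosomes 1 and 8 were higher in the JmjC line and chromosomes 6 and 7 lower; on the deposited spike-in scale, where the median over all promoters is 0.24 higher in the JmjC line, chromosomes 6 and 7 were at 0.07 and 0.06. For chromosome 1 the median log2 difference to the mean of the 7 libraries was 0.27 ± 0.024 in the JmjC line (SD, n = 3) and -0.19 ± 0.0045 in the CXXC line (SD, n = 4), a difference of 0.46. The values for chromosome 8 were 0.21 ± 0.012 and -0.14 ± 0.021, a difference of 0.36. Chromosome 6 differed by -0.20 and chromosome 7 by -0.21. No other autosome differed by more than 0.105 in size. Every autosome except 1 and 8 had a negative difference, and the median over all tested promoters was -0.03. Under scaling to a total, higher chromosomes 1 and 8 lower the values of the rest. Whether the small negative shifts go beyond that was not tested. In tamoxifen-treated libraries, which did not enter these values, the differences were 0.50, 0.30, -0.18 and -0.18 for chromosomes 1, 8, 6 and 7. The libraries of the lines did not overlap for 18 of 19 autosomes, and 17 passed an exact permutation test at an adjusted p of 0.0319, but 0 did so under TMM or cyclic loess scaling. The smallest exact permutation p is 0.0286 here, so whether any autosome passes depends on how many reach that value together. These counts therefore do not decide whether chromosomes 1, 6, 7 or 8 differ under those scalings. The number of copies of each chromosome was not tested.

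**Figure D1:**
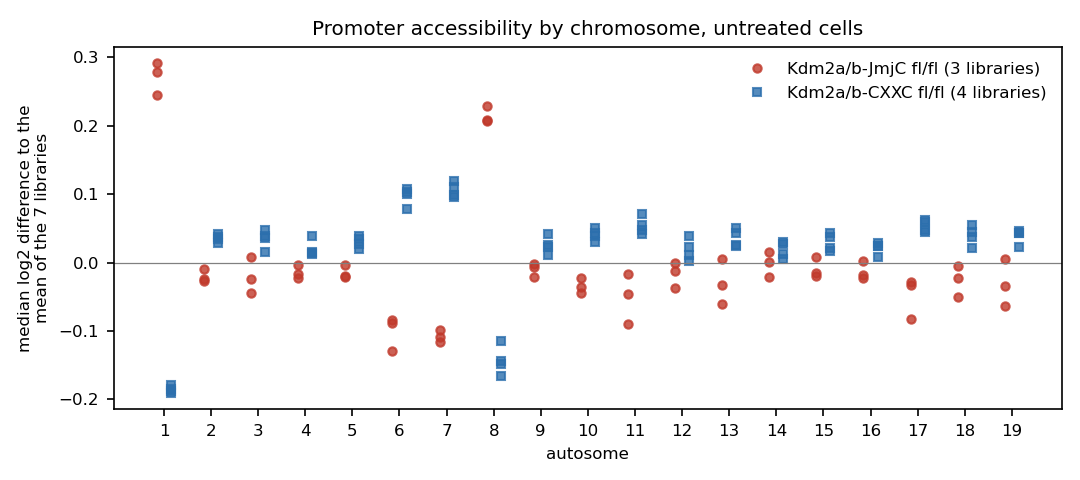
Median over tested promoters of the log2 difference to the mean of the 7 untreated libraries (vertical axis, log2 units) for each autosome (horizontal axis), with 1 point per library, circles for the 3 JmjC libraries and squares for the 4 CXXC libraries. Chromosomes 1 and 8 are higher in all JmjC libraries, with mean differences of 0.46 and 0.36, and chromosomes 6 and 7 are lower, by 0.20 and 0.21, relative to the promoter total (on the spike-in scale both are slightly above 0).

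Within chromosomes 6 and 7 the lower values were held by long neighbouring blocks and not by the chromosome as a whole. On chromosome 6 a stretch of 33.7 Mb (chr6:108660429-142387287, from Bhlhe40, a circadian repressor, to Recql, a DNA helicase) had a median log2 difference of -0.60 over 275 promoters, against -0.03 over the other 587. Of its promoters, 96% had a difference below that median of the other 587. Chromosome 7 held a stretch of 18.8 Mb (chr7:26808727-45640176, Cyp2g1 to Mamstr, 296 promoters) with a median of -0.62 and another of 10.7 Mb (chr7:46667178-57387471, Tph1 to Gm9962, 40 promoters) with a median of -0.66. The 29 promoters between these had a median of -0.45, so the pair may be read as a single block. In the chromosome 6 stretch the JmjC libraries were at -0.34, -0.37 and -0.30 relative to the mean of the 7 libraries, and the CXXC libraries at 0.24 to 0.29. Libraries of the lines did not overlap in any of the 5 stretches found, which were chosen by this same difference.

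Higher stretches were short. A stretch of 2.79 Mb on chromosome 1 (chr1:88701992-91494867, Arl4c to Traf3ip1, 24 promoters) had a median log2 difference of 1.33, against 0.46 for the rest of that chromosome. On chromosome 14 a stretch of 8.66 Mb (chr14:96518835-105177527, Klhl1 to Rbm26, 25 promoters) had a median of 0.49, against -0.03. Stretches were found from these same values, as runs of at least 15 promoters whose running median over 10 promoters on each side departed by over 0.3 from the chromosome's median, so their own size carries no test. In tamoxifen-treated libraries the medians were 1.1 for the chromosome 1 stretch, -0.56 for chromosome 6, -0.62 and -0.58 for chromosome 7 and 0.60 for chromosome 14. Borders are approximate: Itpr1, just before the chromosome 6 stretch, differed by -0.58 and Bhlhe40, its first promoter, by -0.54.

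**Figure D2:**
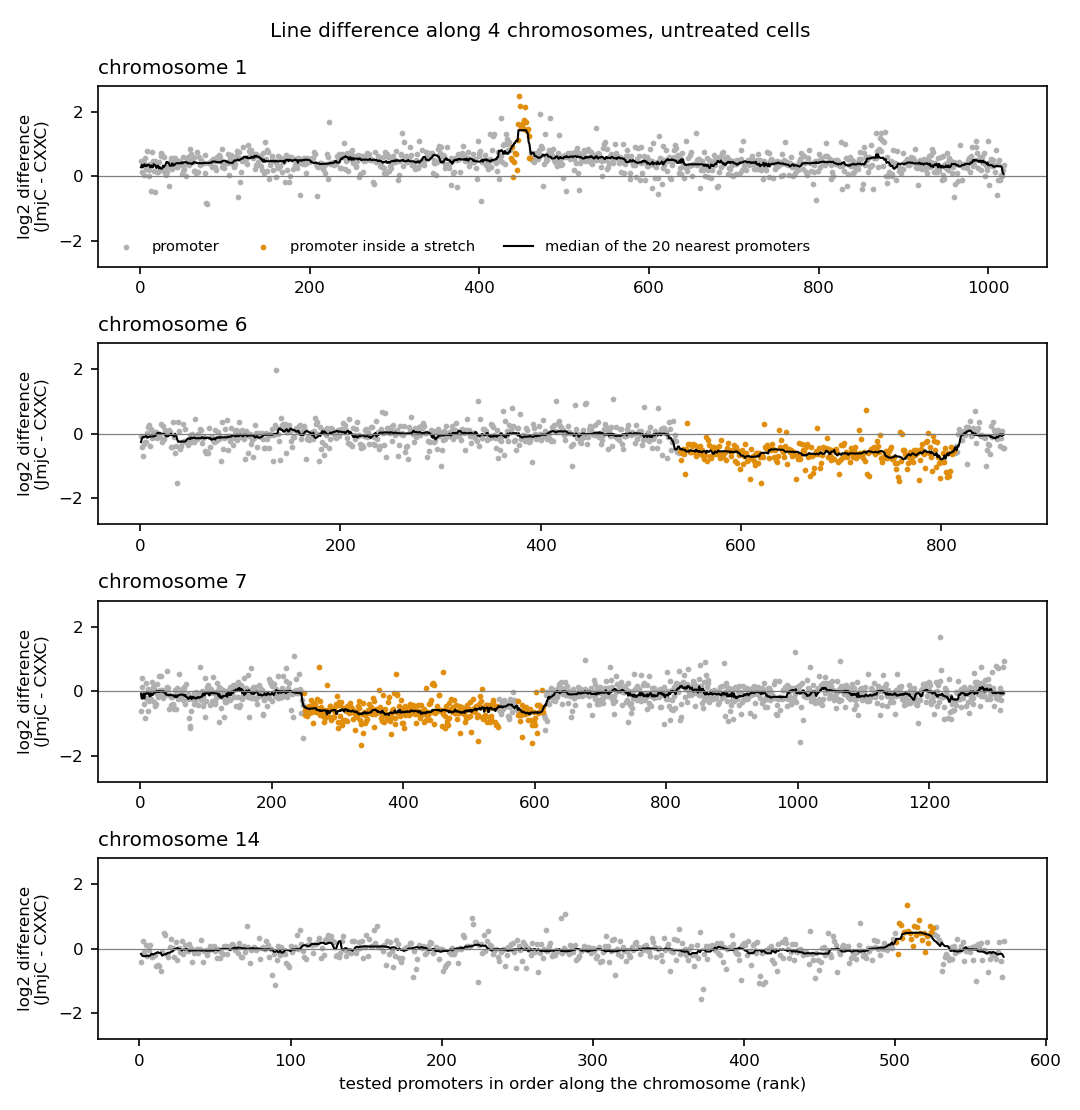
Log2 difference between the untreated JmjC and CXXC lines (vertical axis, scaled to promoter totals) for each tested promoter in order along chromosomes 1, 6, 7 and 14 (horizontal axis, rank), with promoters inside a stretch in orange and the running median of the 20 nearest promoters as a line. The median falls to about -0.60 over 275 promoters of chromosome 6 and rises to a median of 1.33 over 24 promoters of chromosome 1.

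The other 2 lines of the series carry a conditional ZF-CxxC exon in a single gene (Kdm2a-CXXC or Kdm2b-CXXC). Their untreated cells, with 3 libraries each, were read over the same stretches. Over the chromosome 6 stretch the JmjC line differed from Kdm2a-CXXC by a median of 0.08, whereas the CXXC line lay above Kdm2a-CXXC by 0.66 and above Kdm2b-CXXC by 0.32. The chromosome 7 stretches followed the same order, with 0.04 and -0.02 for JmjC minus Kdm2a-CXXC and 0.64 and 0.69 for CXXC minus Kdm2a-CXXC. On chromosome 14 the Kdm2a-CXXC line stood highest, 1.04 above the JmjC line (JmjC minus Kdm2a-CXXC, -1.04) and further above the CXXC line (CXXC minus Kdm2a-CXXC, -1.57). On the chromosome 1 stretch JmjC and Kdm2a-CXXC were close (0.07), and both Kdm2b-CXXC (0.84 below the JmjC line) and the CXXC line were lower. Over the rest of chromosome 1 the JmjC line lay above Kdm2a-CXXC by 0.26 and above Kdm2b-CXXC by 0.45, so part of the 0.84 was common to the chromosome. These differences share libraries and are given side by side as values, with no test.

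Calls made per promoter moved with the way position was handled. A promoter was called different at a limma adjusted p under 0.05 and a fold over 1.4. With scaling to promoter totals alone, 1413 of 16300 promoters (8.67%) were called, 617 higher and 796 lower in the JmjC line (43.7% higher, against 90.2% of 2485 calls on the deposited spike-in scale); 556 of the 560 calls on chromosomes 1 and 8 were higher, and 401 of the 660 promoters in stretches (60.8%) were called. The stretches were chosen by these same differences, so a high share of calls in them, and the direction of those calls, follow from the choice. With the median of each chromosome removed from each library, 448 (2.75%) were called, 103 higher (0.632%) and 345 lower (2.12%). All 136 of those calls in the stretches of chromosomes 6 and 7 were lower. Of the 53 calls on these chromosomes outside the stretches, 18 were lower. The medians removed from chromosomes 6 and 7 include the stretches, which raises the centred values of their other promoters. When each stretch was given its own median, an alternative chosen after seeing the data, 10 calls were left in those stretches. In all, 218 (1.34%) were then called, 43 higher and 175 lower. With the median of the 25 nearest promoters on each side removed, 222 (1.36%) were called. Libraries of the lines did not overlap for 2224 promoters (13.6%) after chromosome medians were removed.

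Past both the chromosome-centred and the neighbour-centred thresholds, with no overlap between the lines, stood 186 promoters, 48 higher (0.294%) and 138 lower (0.847%) in the JmjC line. The higher promoters differed by 0.50 to 2.16 on the log2 scale with a median of 0.87, and the lower by -2.33 to -0.49 with a median of -0.90. They lay on 18 and 19 autosomes, and with stretches given their own medians 36 and 122 of them were called. All log2 differences below have chromosome medians removed unless another scale is named, while RPM values are not centred. These 186 were chosen by their difference and for no overlap, so their values, and the separation of their untreated libraries given below, are a description. The same rule gave 113 promoters by DESeq2 (111 of the 186), 111 without JmjC replicate 1 (99 shared), 104 without JmjC replicate 2 (95 shared) and 117 without CXXC replicate 3 (106 shared). At 3 of the lower promoters the JmjC line had a mean under 10 reads, as had the CXXC line at 2 of the higher ones.

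The largest higher difference was at Stra8, which retinoic acid induces in germ cells entering meiosis and which is kept silent by DNA methylation elsewhere (chr6:34920760-34921159, outside the chromosome 6 stretch). Stra8 was at 36.2, 38.7 and 32.7 RPM in the JmjC libraries and at 10.1, 7.64, 8.98 and 7.29 RPM in the CXXC libraries. Every JmjC library lay above every CXXC library by a wide margin. The log2 difference was 2.16 with a standard error of 0.28 (limma adjusted p = 1.5e-08). With stretches given their own medians it was 2.0 (limma adjusted p = 3.1e-07). Other lines stood between, with 19.2 to 26.9 RPM in Kdm2a-CXXC and 13 to 23.7 RPM in Kdm2b-CXXC. Of the 36 tested germline genes on a list of those held silent by DNA methylation, Stra8 was the only member called (2.78%, against 2.75% of all tested).

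Rxra (chr2:27677001-27677400) encodes a nuclear receptor that pairs with the retinoic acid receptors, and its promoter is CpG-rich. It was at 46.2, 43.5 and 39.8 RPM in the JmjC line and at 21.5, 17.2, 18.0 and 21.2 RPM in the CXXC line. The libraries did not overlap, as the choice required, and the log2 difference was 1.17 with a standard error of 0.22 (limma adjusted p = 0.00014). In treated libraries Rxra was at 35.3, 29.5 and 27.5 RPM in the JmjC line and at 22.1 to 36.3 RPM in the CXXC line, groups that overlapped, with a log2 difference of 0.29 (limma adjusted p = 0.58). The 6 libraries of the other 2 lines were between 18.5 and 33.1 RPM, all below the untreated JmjC libraries.

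Several of the higher promoters stood close together. On chromosome 1, 11 consecutive tested promoters over 0.453 Mb (chr1:90952908-91406229) each passed the fold threshold after neighbours were removed, with a median chromosome-centred difference of 1.20 and a range of 0.94 to 2.05, and 6 of them were among the 186. They were Prlh, 2 promoters of Lrrfip1, Rbm44, Ramp1, Ube2f, Scly, Espnl, Erfe, Ilkap and 1700020N18Rik. Prlh, at the top of that range, was at 0 to 1.34 RPM in the CXXC line. Neither Prlh nor 1700020N18Rik was called in the chromosome-centred fit (limma adjusted p = 0.073 and 0.17). Ube2f, an enzyme that conjugates the ubiquitin-like protein NEDD8, was at 142, 122 and 125 RPM in the JmjC line and at 39.0, 34.4, 49.1 and 31.2 RPM in the CXXC line (log2 difference 1.29, standard error 0.15, limma adjusted p = 1.2e-09). No library of either line came near the other line. Ube2f was at 111 to 131 RPM in Kdm2a-CXXC, overlapping the JmjC line, and at 57.3 to 71.0 RPM in Kdm2b-CXXC, between both. Erfe, which encodes the iron-regulating hormone erythroferrone, differed by 1.24, and Rbm44, an RNA-binding protein gene of germ cells, by 1.1. In treated libraries the median over the promoters of this run, without Prlh, which had no treated value, was 0.83. With the stretch given its own median, Erfe (0.56, limma adjusted p = 0.14) and Rbm44 (0.43, limma adjusted p = 0.34) were no longer called, while Ube2f was (0.61, limma adjusted p = 0.015); with the median of only 5 neighbours on each side removed, Ube2f was at 0.05 (limma adjusted p = 0.95). Cops8, a COP9 signalosome subunit gene in the same stretch, was at 119, 116 and 117 RPM against 46.4, 32.5, 31.7 and 41.1 RPM (1.16); it was not called either after the stretch's median was removed (limma adjusted p = 0.097).

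The remaining higher promoters by size of difference were scattered. Crybg2, on chromosome 4, was at 15.6, 13.4 and 25.5 RPM against 10.8, 2.55, 5.99 and 2.65 RPM (1.73), C920009B18Rik, a non-coding RNA gene on chromosome 10, differed by 1.47, and Ano7, an anoctamin gene on chromosome 1 beyond the stretch, by 1.34. In the CXXC libraries Crybg2 had 16, 4, 10 and 4 reads and C920009B18Rik 5, 8, 10 and 8, so the sizes of both differences are poorly fixed. On chromosome 6 outside the stretch, 4930512J16Rik differed by 1.29 and Noto, a homeobox gene of the notochord, by 1.22. Of these, Crybg2 (1.22), C920009B18Rik (1.29), Ano7 (0.90) and 4930512J16Rik (1.03) were also called in treated libraries, and Noto was at 0.65 with a limma adjusted p of 0.15. Without JmjC replicate 3, the limma adjusted p was 0.0873 for Crybg2, 0.073 for C920009B18Rik and 0.0507 for Ano7, and without JmjC replicate 1 it was 0.221 for C920009B18Rik.

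**Figure D3:**
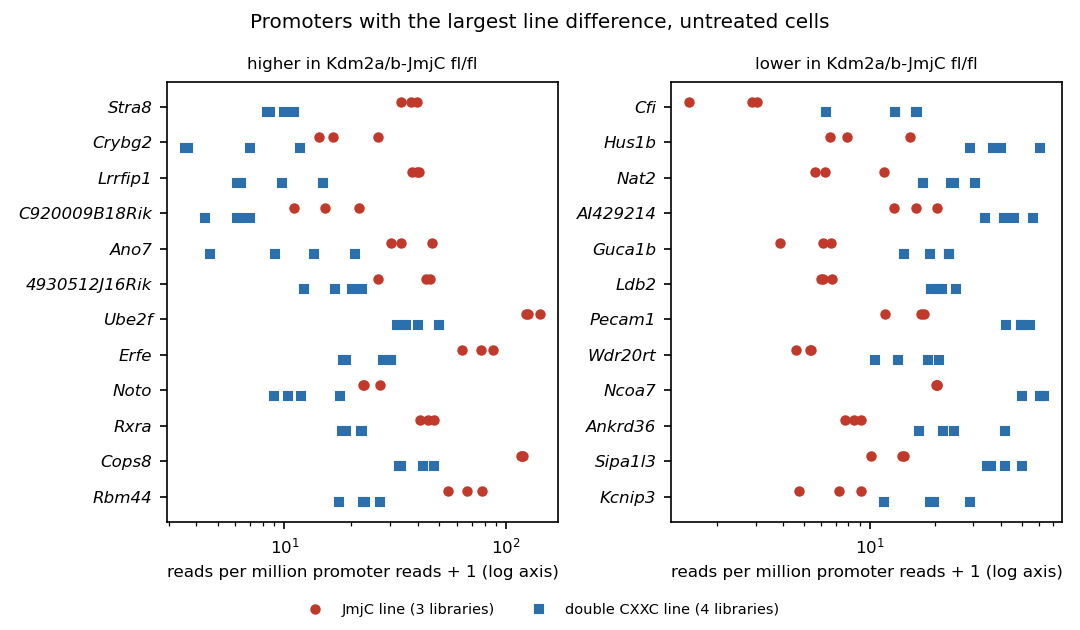
Accessibility in each untreated library (horizontal axis, RPM plus 1, log axis) of the 12 promoters with the largest higher and the 12 with the largest lower difference in the JmjC line, with 1 row per promoter, circles for the 3 JmjC libraries and squares for the 4 CXXC libraries. Rows run from Stra8 (2.16) to Rbm44 (1.1) and from Cfi (-2.33) to Kcnip3 (-1.42). Symbols of the lines do not overlap in any row, and the promoters were chosen for no overlap in chromosome-centred values.

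Among the lower promoters, Cfi had the largest difference and, of the 12 with the largest differences, the lowest level in the JmjC line. Cfi, which encodes complement factor I, was at 1.87, 0.478 and 2.04 RPM in the JmjC line and at 12.1, 15.3, 15.6 and 5.31 RPM in the CXXC line, a log2 difference of -2.33 with a standard error of 0.49. These levels rest on 3, 1 and 4 reads in the JmjC libraries and 18, 24, 26 and 8 reads in the CXXC libraries, so Cfi passed the filter on low reads through the CXXC line, and the size of its difference is poorly fixed. In treated libraries its difference was -0.78 (limma adjusted p = 0.44). Hus1b (chr13:30947562-30947961) was at 6.87, 14.3 and 5.62 RPM against 59.8, 28.0, 35.9 and 39.1 RPM. The groups were well apart, with a log2 difference of -2.05 and a standard error of 0.26 (limma adjusted p = 1.2e-08). Hus1b was called again in treated libraries (-1.68, limma adjusted p = 6.8e-07).

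AI429214, an open reading frame on chromosome 8, was at 19.4, 12 and 15.3 RPM in the JmjC line and at 32.9, 45.2, 55.7 and 40.5 RPM in the CXXC line. It was lower in every JmjC library although chromosome 8 as a whole was higher, and the log2 difference was -1.79 with a standard error of 0.22. Its treated value, -1.81 (limma adjusted p = 4.5e-12), was nearly the same. Wdr20rt, a retrotransposed copy of Wdr20 on chromosome 12, was at 4.37, 4.30 and 3.57 RPM against 17.5, 9.55, 12.6 and 19.9 RPM (-1.56), and at -1.83 in treated libraries. Multi-mapping reads were removed before counting, and how much of the interval of this copy can be mapped uniquely was not tested. Guca1b, a guanylate cyclase activator of photoreceptors, differed by -1.76, and by -1.65 in treated libraries. In the untreated JmjC libraries Wdr20rt had 7, 9 and 7 reads and Guca1b 9, 6 and 10, so the sizes of both differences are poorly fixed.

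Ncoa7 on chromosome 10 was at 19.4, 19 and 19.4 RPM in the JmjC line and at 62.5, 59.9, 60.5 and 49.1 RPM in the CXXC line. The JmjC libraries hardly differed among themselves, and the log2 difference was -1.46 with a standard error of 0.19 (limma adjusted p = 2.0e-08). In treated libraries it was -0.75. Nat2, an N-acetyltransferase gene on chromosome 8, was at 10.6, 5.26 and 4.59 RPM against 29.6, 23.6, 22.7 and 16.6 RPM (-2.03, treated -1.07). Sipa1l3, a gene of the Rap GTPase-activating family inside the chromosome 7 stretch, was at 13.1, 13.4 and 9.19 RPM against 49.0, 40.8, 35.3 and 33.8 RPM. Its difference of -1.45 became -1.04 with the stretch's own median and was still called (limma adjusted p = 0.0051). Ankrd36 (-1.45) and Kcnip3, the calcium sensor DREAM (-1.42), completed the 12 lower promoters, and neither was called in treated libraries (-0.63 and -0.83). Kcnip3 was not called without JmjC replicate 1 (limma adjusted p = 0.0575) or CXXC replicate 2 (limma adjusted p = 0.0586).

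Pecam1 and Ldb2 differed between the lines in untreated cells and not by a called amount after tamoxifen. Pecam1, which encodes a cell adhesion protein of endothelium that stem cells also carry, was at 16.2, 16.7 and 10.7 RPM in the JmjC line and at 53.8, 41.4, 48.5 and 48.4 RPM in the CXXC line (-1.57, standard error 0.21, limma adjusted p = 8.0e-08). Treated libraries had 16.4, 20 and 18.3 RPM against 34.3, 23.3, 28.7 and 19.9 RPM, a difference of -0.39 (limma adjusted p = 0.46). Ldb2, a cofactor that binds LIM-domain transcription factors, was at 5.00, 5.74 and 5.10 RPM against 18.1, 19.7, 23.9 and 20.6 RPM. The untreated CXXC libraries stood apart from all others for Ldb2: the other untreated lines were at 3.23 to 8.52 RPM and the treated CXXC libraries at 4.56 to 10.3 RPM, so the treated difference was 0.06.

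A short block on chromosome 15 was lower in the JmjC line. There, 6 consecutive tested promoters over 0.21 Mb (chr15:79804510-80015008), of Nptxr, Npcd, Apobec3, D730005E14Rik, Cbx7 and Pdgfb, had a median log2 difference of -0.65 and a range of -1.20 to -0.52, and 5 of them were among the 186. Cbx7, the chromodomain subunit of canonical PRC1 in stem cells, was at 79.3, 93.2 and 69.9 RPM in the JmjC line and at 138, 157, 139 and 153 RPM in the CXXC line (-0.82, standard error 0.11, limma adjusted p = 1.4e-07). Kdm2a-CXXC at 64.7 to 79.5 RPM and Kdm2b-CXXC at 75.5 to 94.1 RPM overlapped the JmjC line, and the CXXC libraries were above all others. Apobec3, a cytidine deaminase that restricts retroviruses, was at 31.9, 41.6 and 38.3 RPM against 53.1, 72.0, 55.1 and 61.0 RPM (-0.64). D730005E14Rik, a non-coding RNA gene whose interval lies next to that of Apobec3, had the largest difference of the block (-1.20). In treated libraries the block's median was -0.72, and Cbx7 was at -0.77 (limma adjusted p = 1.8e-07).

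Of 53 tested promoters of imprinted genes, which are expressed from a single parental allele, 7 were called lower (13.2%) and 1 higher (1.89%) in the JmjC line by the chromosome-centred thresholds, against 2.12% and 0.632% of all tested promoters, of whose calls 77% were lower. With stretches given their own medians 6 were lower and 0 higher. The list had a median of -0.05 against 0.01 over all tested promoters, and 4 were among the 186: Peg3, Usp29, Zim1 and Peg13. The other lower ones, named after their values were seen, were Nap1l5 (-0.81), Snrpn (-0.70) and Impact (-0.53), and the higher one was Cdkn1c (0.59). Impact (limma adjusted p = 0.065) and Cdkn1c (0.47, limma adjusted p = 0.082) were not called in the fit with stretches given their own medians. Neither lies in a stretch. That fit removes another median from chromosome 7 outside its stretches, which lowered Cdkn1c and also Peg3 (-0.85 to -0.98). Zim1 and Cdkn1c are known to be expressed from the maternal allele and the other 6 from the paternal allele. Peg3 and Usp29, in the paternally expressed cluster of chromosome 7, have overlapping intervals and share reads. Peg3 was at 55.6, 42.5 and 50.5 RPM in the JmjC line and at 97.4, 117, 110 and 94.8 RPM in the CXXC line (-0.85, standard error 0.14, limma adjusted p = 9.3e-06). Kdm2a-CXXC, at 49.7 to 54.8 RPM, overlapped the JmjC line, and Kdm2b-CXXC, at 83.0 to 95.7 RPM, reached the CXXC line. Usp29 differed by -0.93 and the neighbouring zinc finger gene Zim1 by -0.62. Peg13, a non-coding RNA of chromosome 15 from the paternal allele, was at 17.5, 9.08 and 14.3 RPM against 34.3, 33.1, 38.3 and 25.2 RPM (-1.20). In treated libraries Peg3 (-0.78), Usp29 (-0.89) and Peg13 (-1.41) were called again, and Zim1 was at -0.18 (limma adjusted p = 0.65).

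Of 21 tested promoters of pluripotency genes, 3 were called lower in the JmjC line (Gdf3, Nanog and Prdm14; 14.3%, against 2.12% of all tested) and 1 higher (Klf5; 4.76%, against 0.632%), with a median over the list of -0.11. With stretches given their own medians, Gdf3 and Prdm14 were called. Gdf3 and Nanog lie in the chromosome 6 stretch, and Gdf3 alone was among the 186. Prdm14, a repressor needed for the naive state, differed by -0.75, and Klf5, a Krüppel-like activator that lies in the chromosome 14 stretch, by 0.53 (-0.06 with the stretch's own median, limma adjusted p = 0.84); both were named after their values were seen. Gdf3, a TGF-beta ligand of pluripotent cells, was at 30.0, 33.0 and 42.4 RPM against 68.5, 89.2, 80.8 and 87.5 RPM (-1.0, standard error 0.16, limma adjusted p = 6.7e-06). The groups did not overlap, as the choice required, and the difference was -0.59 with the stretch's own median (limma adjusted p = 0.027). Nanog, close to Gdf3, was at 32.5, 34.4 and 25.0 RPM against 48.4, 58.6, 83.2 and 75.6 RPM (-0.88, limma adjusted p = 0.00059), which became -0.47 with the stretch's own median and was then not called (limma adjusted p = 0.19). Pou5f1, which encodes OCT4, differed by -0.47 (limma adjusted p = 0.19). Sox2 was at -0.19, Esrrb at -0.15 and Zfp42 at 0.08, none called, and neither Kdm2a (0.17) nor its paralogue Kdm2b (0.03 and -0.07 at 2 promoters) was called.

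Zinc finger genes, many of which encode KRAB repressors of transposons, gave 3 higher (1.1%, against 0.632% of all tested) and 15 lower calls (5.51%, against 2.12%) out of 272 tested, 33 of which lie in stretches. With stretches given their own medians 1 was higher and 4 lower (1.84% called, against 1.34% of all tested). For each list that follows, the share to read it against is 2.75% called in all. Of the list, Zfp236 (0.77), Zfp560 (-0.90), Zfp872 (-0.63) and Zfp174 (-0.63) were named by the rule, and only Zfp236 (0.73) and Zfp560 (-0.72) of these were called in treated libraries. The limma adjusted p was 0.0678 for Zfp236 without JmjC replicate 2, 0.0919 for Zfp174 without JmjC replicate 3, and 0.0817 and 0.0583 for Zfp872 without JmjC replicate 1 and CXXC replicate 1. Interferon and antiviral genes had 2 higher and 1 lower of 34 (8.82%), among them Gbp2, an interferon-induced GTPase at 16.9, 24.9 and 35.2 RPM against 14.1, 10.2, 13.8 and 11.3 RPM (1.01, treated 0.94). Gbp2 was not called without JmjC replicate 2, JmjC replicate 3 or CXXC replicate 2 (limma adjusted p = 0.105, 0.232 and 0.0524). The others, named after their values were seen, were Eif2ak2 (0.49), the double-stranded RNA kinase, and Irf3 (-0.58), in the chromosome 7 stretch; neither was called with stretches given their own medians (limma adjusted p = 0.07 and 0.62). Of 40 tested Hox cluster promoters 1 was called (2.5%), Hoxd12, at 11.9, 14.8 and 11.2 RPM against 27.5, 36.9, 20.4 and 31.8 RPM (-1.07), with a treated difference of 0.10. Clustered protocadherins gave 1 lower call of 34 (2.94%), Pcdhga8 (-0.92). Trophoblast genes gave 2 lower of 14 (14.3%), a promoter of Elf5 (-1.24) and Tead4 (-0.56), named after their values were seen. Neither was called with stretches given their own medians: Tead4, in the chromosome 6 stretch, was at -0.15 (limma adjusted p = 0.74), and Elf5, in no stretch, had a limma adjusted p of 0.055. Neural fate genes 1 higher, Pou4f1 (0.74, in the chromosome 14 stretch), and 1 lower, Olig2 (-0.57), of 24 (8.33%). Olig2 was not called without JmjC replicate 1 or JmjC replicate 2 (limma adjusted p = 0.129 and 0.0789). The p53 pathway genes gave 1 higher, Cdkn1c, and 1 lower, Bax (-0.60), of 24 (8.33%), and cytosolic ribosomal protein genes 1 lower of 62 (1.61%), Rps16 (-0.58), with Bax and Rps16 both in the chromosome 7 stretch. Pou4f1, Bax and Rps16 were named after their values were seen, and neither these nor Cdkn1c were called with stretches given their own medians. Formative and primed state genes (21), streak and mesoderm genes (19), FGF and MAPK feedback genes (21), the DNA methylation machinery (17), KDM2 and PRC1.1 genes (9), H2 genes (11), Nlrp and killer lectin receptor genes (7) and the 1 tested promoter of the 2-cell state gave 0 calls by limma, and medians of their log2 differences ran from -0.20 to 0.08.

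The 186 promoters were then read in the treated libraries of the same lines (3 JmjC and 4 CXXC, 800 nM tamoxifen for 96 h), which the choice had not used but which differ also in the excised domain. There, 473 of 16639 promoters (2.84%) were called, 125 higher and 348 lower. Of the 48 higher promoters 46 kept their sign and 20 (41.7%) were called the same way, and of the 138 lower promoters 125 kept their sign and 56 (40.6%) were called the same way. None was called the opposite way, while 2.76% of all promoters tested in both were called the same way and 61.8% had the same sign. Differences were smaller after treatment, with medians of 0.43 and -0.53 against 0.87 and -0.90 in the untreated libraries that chose them. A test of whether the difference between lines itself changed with treatment, added after seeing the data, called 0 of 16244 promoters (0%) by limma, with 1072 at an unadjusted p under 0.05 and a smallest adjusted p of 0.111, so the changes at Ldb2, Pecam1 and Rxra did not pass (adjusted p = 0.56, 0.46 and 0.59 by limma).

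**Figure D4:**
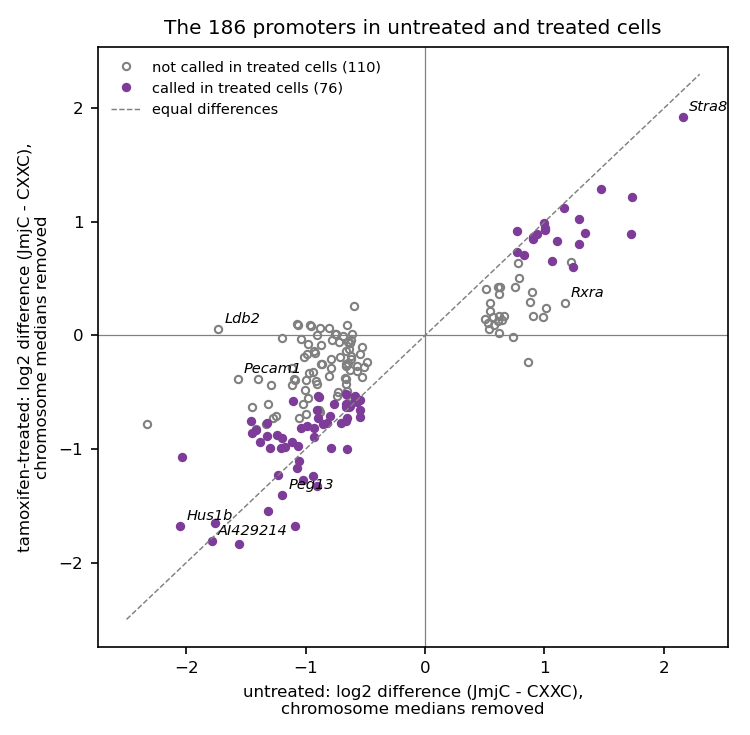
Log2 difference between the lines in tamoxifen-treated libraries (vertical axis) against untreated libraries (horizontal axis) for the 186 promoters, chromosome medians removed, with those called in treated libraries filled. Filled points number 76, each on the same side of 0 in both, Stra8 (2.16 untreated, 1.92 treated) among them, while Ldb2 (-1.73 untreated) is at 0.06 after treatment.

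Read in the Kdm2a-CXXC and Kdm2b-CXXC lines, the lower promoters often followed 1 order. At 74 of the 138 lower promoters (53.6%), Kdm2b-CXXC lay nearer the CXXC line and Kdm2a-CXXC nearer the JmjC line. This order held at 18 of the 48 higher promoters (37.5%) and at 27.4% of all tested promoters. The higher and lower promoters were chosen for a gap between the untreated JmjC and CXXC values, from which nearness is measured. Most tested promoters were not called different, so the values over all tested promoters are not a matched background. No test compared them with the chosen promoters. The reverse, with Kdm2a-CXXC nearer the CXXC line and Kdm2b-CXXC nearer the JmjC line, was seen at 6 lower and 6 higher promoters (2498 of 16300 tested). Both single lines lay nearer the CXXC line at 25 lower and 12 higher promoters (4506 of all tested). Both lay nearer the JmjC line at 33 lower and 12 higher promoters (4824 of all tested). AI429214 was an example of the first order, at 16.6 to 18.4 RPM in Kdm2a-CXXC and 35.5 to 49.9 RPM in Kdm2b-CXXC. Hus1b (6.28 to 15.0 against 26.1 to 32.7 RPM), Wdr20rt (3.64 to 7.18 against 16.2 to 21 RPM) and Pecam1 (11.6 to 17.1 against 28.0 to 61.0 RPM) followed the same order. The CXXC line was made from mESCs that already carried the Kdm2b-CXXC alleles; whether shared descent sets these levels was not tested.

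**Figure D5:**
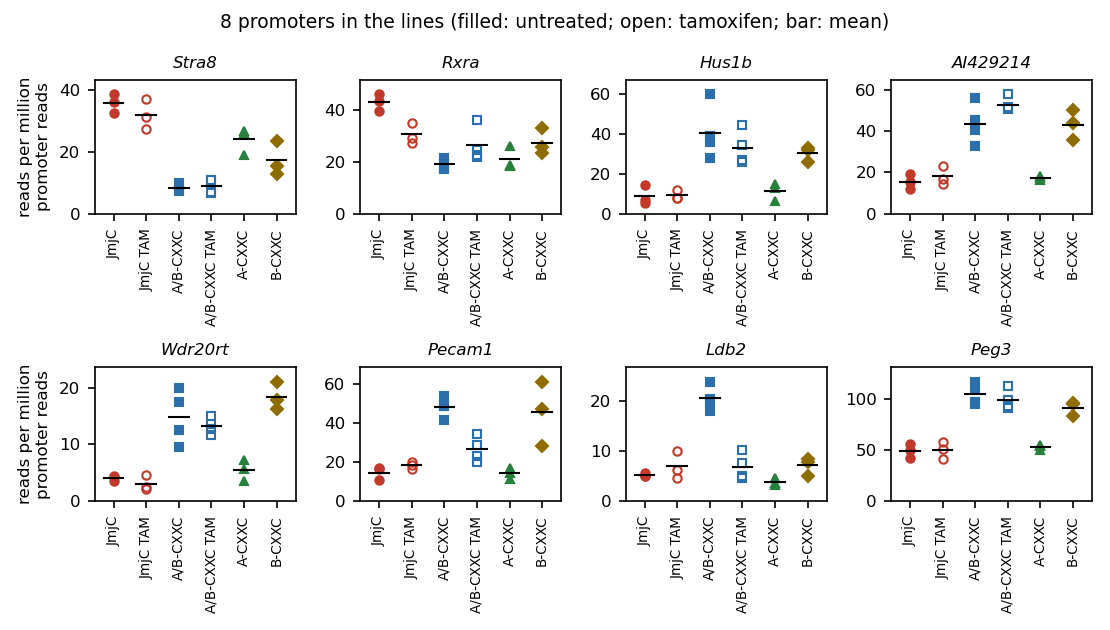
Accessibility (vertical axis, RPM) of 8 promoters in 6 groups of libraries (horizontal axis), untreated filled and tamoxifen-treated open, with the mean as a bar; A/B-CXXC is the double CXXC line, A-CXXC and B-CXXC the single ones. For Hus1b, AI429214, Wdr20rt, Pecam1 and Peg3 the untreated JmjC and Kdm2a-CXXC libraries lie low and the untreated CXXC and Kdm2b-CXXC libraries high, while for Ldb2 the untreated CXXC libraries alone are high, at 18.1 to 23.9 RPM.

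Lower promoters were poor in CpG. CpG-rich intervals, those with at least 50% GC and at least 0.6 of the CpGs that their base content predicts, made up 67.2% of all tested promoters, 30 of the 48 higher (62.5%) and 43 of the 138 lower (31.2%). The median CpG ratio was 0.759 over all tested, 0.826 over the higher and 0.47 over the lower promoters, and the median number of CpGs per interval was 30, 35.5 and 13. Rxra had 82 CpGs in its interval, Peg3 24, Stra8 12, Hus1b 11 and Ncoa7 5. The lower promoters had a median of 44.6 RPM in the CXXC line, where 55.2 RPM was the median over all tested, and of 22.3 RPM in the JmjC line, whose values chose them; the part of read depth in the CpG share was not tested. Across the whole genome, the median over CpG-rich promoters minus that over the others was 0.03 ± 0.045 in the JmjC line (SD, n = 3) and -0.05 ± 0.022 in the CXXC line (SD, n = 4), a difference of 0.08 that did not pass an exact permutation test (two-sided, p = 0.0571). The E-box letters CACGTG were present on either strand in 10.5% of all tested intervals, in 1 of 48 higher (2.08%) and in 15 of 138 lower (10.9%). The octamer ATGCAAAT, the letters that OCT factors bind, was in 1.36% of all, 1 of 48 (2.08%) and 3 of 138 (2.17%). Neither stood in the intervals of the 5 genes whose sequences are shown.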

How the data were processed

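Promoter accessibility was measured by calibrated ATAC-seq. Per the study's methods and the submitters' processing notes, the authors aligned reads with Bowtie2 to mm10 joined to dm6, removed multi-mapping reads and duplicates (SAMtools), and counted reads over 400 bp promoter intervals of 20633 genes; MACS2 and DESeq2 are also named, and versions are not given in the sources used here. The values deposited for each library are a signal: promoter reads over a size factor from the spike-in. Whole reads were recovered from the steps between values (100% of values within 0.1 of a whole read). The deposited columns of the authors' comparisons were not used, and the 26 genomic DNA libraries are not analysed here.

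The tables of the lines were joined on RefSeq identifier, libraries scaled to their promoter totals, and log2(reads per 1000000 promoter reads + 1) was fitted with limma 3.58.1 (R 4.3.3; mean-variance trend, two-sided, Benjamini-Hochberg over all promoters tested) after the edgeR 4.0.16 filter on low reads. The log2 scale with a pseudocount of 1 understates changes of low promoters. Fits were made from the same reads, uncentred, with each chromosome's median removed and with the median of the 25 nearest promoters on each side removed. Called promoters had an adjusted p under 0.05 and a fold over 1.4. Chromosome medians were compared by exact permutation over libraries. Promoters were named if they passed both centred fits without overlap between lines (the 12 largest each way, and up to 4 of each gene list), together with Kdm2a, Kdm2b and 5 stem cell markers; members and lists were chosen with earlier results of these data known. Symbols were matched for 99.1% of identifiers, and 33 of the 46 named promoters had a RefSeq upstream sequence. DESeq2 1.42.0 and the quasi-likelihood test of edgeR, both on recovered reads, were alternatives. Depth was 1.49 to 2.09 M promoter reads per untreated library, so promoters with few reads carry wide counting error.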

Additional observations from a re-analysis of the deposited data

Results flagged for a closer look

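In 3 of 71 sets of 4 libraries of the CXXC line, a single library lay far from the other three by Dixon's ratio of gap to range, where chance gives about 1 in 20. At the Ncoa7 promoter, replicate 4 was the low library of a range of 5.61 to 5.94 (log2 RPM, ratio 0.877), still above all JmjC libraries. For the median of chromosome 4, replicate 2 stood apart from the others within 0.013 to 0.040 (log2 difference to the mean of the 7 libraries, ratio 0.923). For the median of chromosome 19, replicate 1 stood apart within 0.023 to 0.046 (ratio 0.879). At 0 of the named promoters did all untreated libraries and all treated libraries differ between the lines in opposite directions.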

How the results depend on the processing

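Settings that changed a count by over 1.5 times or a call were as follows; the cause was not tested. Scaled by spike-in, 2485 promoters were called without centring (1413 in the report), and chromosomes 6 and 7 lay at 0.0708 and 0.0553. Stretches centred on their own, chosen after seeing the data, gave 218 in place of 448. The neighbour-centred count of 222 was 146 at a mean of at least 50 reads, 118 by DESeq2 and 178 after cyclic loess, 34.8% of them higher in the JmjC line against 26.1%. The neighbour-centred count was 120 without JmjC replicate 1, 116 without JmjC replicate 2 and 129 without CXXC replicate 3. The set of 186, checked after seeing the data, held 113 by DESeq2. It held 111, 104 and 117 without those same libraries. With 5 neighbours on each side, also chosen after seeing the data, Rbm44 reversed to -0.19. Shifted autosomes numbered 0 under TMM and 0 under cyclic loess, counts that depend on how many autosomes reach the smallest exact p together. CpG-rich minus other promoters passed its exact permutation test (p = 0.0286) by spike-in (0.087), cyclic loess (0.039) and a mean of at least 50 reads (0.0912).

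Leaving out 1 library at a time gave 1163 to 1384 calls uncentred, 303 to 400 chromosome-centred, 116 to 177 neighbour-centred, 104 to 155 of the set of 186 past both centrings and 342 to 458 in treated cells, and 0.0519 to 0.0993 for CpG-rich minus other promoters. It could not be applied to shifted autosomes, since the smallest exact p is then 0.0667 or 0.1. Named promoters lost their call in 17 of 319 such fits (Crybg2, Ano7, C920009B18Rik, Kcnip3, Sparc, Olig2, Zfp872, Zfp174, Zfp236 and Gbp2). The 319 include fits of Kdm2a, Kdm2b, Pou5f1, Sox2, Esrrb and Zfp42, which had no call to lose. With replicate number as a block, 1432, 428, 209 and 417 promoters were called and no named promoter changed its call. Replicate numbers did not pair the libraries of the lines (correlations of deviations 0.007 to 0.031). Of the promoters named by the rule, stretch centring ended the calls of Erfe, Cops8, Rbm44 and Nanog, 25 neighbours that of Nanog, 5 neighbours those of Lrrfip1, Ube2f, Erfe, Noto, Gdf3, Zim1, Zfp174 and Nanog, and DESeq2 that of Ano7.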

Other observations

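The promoters of the 186 that follow were picked after their values were seen, and no theme among them was tested. Mean levels below are RPM with the SD over 3 JmjC and 4 CXXC libraries, and differences are chromosome-centred. Aebp2, a cofactor of Polycomb repressive complex 2 inside the chromosome 6 stretch, was at 29.2 ± 0.44 against 73.8 ± 5.67 (log2 difference -1.11; treated -0.57). Akap12, a kinase scaffold, was at 42.9 ± 9.97 against 83.4 ± 12.3 (-0.88) and Cenpa, the centromeric histone, at 70.9 ± 12.3 against 114 ± 7.35 (-0.64), with treated differences of 0.06 and -0.06. Cldn4, a tight junction protein, was at -0.76 and Igf2bp1, an RNA-binding protein, at -0.63, both called again after treatment (-0.61 and -0.62). On the higher side, Carm1, an arginine methyltransferase, was at 110 ± 9.17 against 74.0 ± 11.3 (0.62; treated 0.02), Chd7, a chromatin remodeller, at 0.54 (treated 0.22) and Tgfb1, a growth factor, at 0.74 (treated -0.02), which was not called with stretches given their own medians (0.61, limma adjusted p = 0.13). Of genes known from endothelium, Plvap and Robo4 were at 1.02 and 0.91 and Pecam1 at -1.57, and Robo4 was called after treatment (0.85) while Plvap was not (0.25).

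In the chromosome 14 stretch, Mzt1, of the microtubule-nucleating complex, was at 206 ± 4.30 against 117 ± 3.34 (0.83) and was called in treated libraries (0.71). With the stretch's own median removed, Mzt1 was at 0.24 and was not called (limma adjusted p = 0.23). The interval of Mzt1 overlaps that of Bora and shares reads with it.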
